A study of Mus musculus with 6 samples.

Results

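The mir-28a, mir-151 and mir-708 hairpins form a small family of miRNA genes that arose from LINE2 repeats, old transposable elements scattered through mammalian genomes. Their 6 mature arms, mmu-miR-28a-5p, mmu-miR-28a-3p, mmu-miR-151-5p, mmu-miR-151-3p, mmu-miR-708-5p and mmu-miR-708-3p, were taken by name from a table of 1966 mature mouse miRNAs. Of the 6 arms, 5 had at least part of a count in some library and 3 had enough counts to be tested.

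A miRNA hairpin is cut into a short duplex of a 5p arm and a 3p arm, and usually a single arm is kept in Argonaute while the other is discarded. The bases just after the first base of the kept arm, the seed, decide most of its target choice, so a hairpin that keeps its other arm gains another set of targets. In the mouse annotation, mir-28a lies in an intron of Lpp, a gene for a focal adhesion protein, mir-151 in an intron of Ptk2, which encodes focal adhesion kinase, and mir-708 in an intron of Tenm4, a teneurin of the cell surface. miR-28 is known for limiting B cell receptor signalling in germinal centre B cells, miR-151 for its link to cell migration, and miR-708 for its induction by endoplasmic reticulum stress.

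Libraries of small RNA came from EVs of colon explants and from EVs of BMDCs, with 3 libraries for each source, all from mice labelled Rab27A fl/fl. Colon explants were whole opened colons cultured for 16 hours, and the labels and the study's methods give the iodixanol gradient, with its fraction 2, to these samples alone, whereas a sentence of the study's results names it for both sources. BMDCs were bone marrow cells grown with GM-CSF to day 7, a culture that can hold macrophage-like cells beside dendritic cells. Source and medium, and the gradient if it was used on colon EVs alone, therefore cannot be told apart in this comparison, and neither can fewer EVs of a kind and less miRNA in each EV.

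Sequences are shown for the arms because the family is defined by sequence. They are RefSeq sequences on GRCm38.p6, read 5′ to 3′, with bases 2 to 8, the seed, in capitals. RefSeq entries matched 4 of the 6 arms. miR-28a-5p and miR-28a-3p lie on chromosome 16 at 24827868 to 24827889 and 24827908 to 24827929, and miR-708-5p and miR-708-3p on chromosome 7 at 96249450 to 96249472 and 96249496 to 96249517, all on the plus strand.
miR-28a-5p: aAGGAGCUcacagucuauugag
miR-708-5p: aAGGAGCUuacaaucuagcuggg
miR-28a-3p: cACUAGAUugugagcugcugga
miR-708-3p: cAACUAGAcugugagcuucuag

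miR-28a-5p and miR-708-5p shared the seed AGGAGCU and their first 8 bases. Counted from 1 at the 5′ end, with the base of miR-28a-5p first, they differed by C9U, G13A, U18G, U19C, G20U and A21G. miR-28a-5p ends at base 22, whereas miR-708-5p runs to base 23. Among 1679 mature sequences, this pair alone had AGGAGCU at bases 2 to 8, and 9 sequences, 0.536%, held it anywhere. The 3p arms had different seeds and shared a run of 8 bases further along. The longest stretch of exact complement between these arms joined the different hairpins, with 13 bases at positions 5 to 17 of both miR-28a-5p and miR-708-3p, in capitals in the next lines, against 8 bases between the arms of mir-28a.
miR-28a-5p: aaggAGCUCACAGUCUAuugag
miR-708-3p: caacUAGACUGUGAGCUucuag

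The miR-151 arms were not compared by sequence. The search covered 1679 RefSeq mature sequences, so a listed miRNA without an entry there could not be found. Among these sequences, the other miRNAs with a run of at least 10 bases in common with any of the 4 matched arms were miR-28b, miR-339-5p and miR-3093-5p. Each shared it with miR-28a-5p. miR-28b, which lacks the first base of miR-28a-5p and so has its seed moved by a single base, had a highest count of 1 in any library. miR-3093-5p was listed at 0 in all 6 libraries. miR-339-5p carries the 10 bases at its 3′ end, where they are no seed, and had a mean of 89.1 CPM, counts scaled by library size, in colon EVs and 753 in BMDC EVs. These lines show the shared run in capitals.
miR-28a-5p: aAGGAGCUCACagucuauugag
miR-339-5p: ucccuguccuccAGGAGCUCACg

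The total count was between 173358 and 645303 in colon EVs and between 83997 and 178454 in BMDC EVs. The labelled sources carried their own marker miRNAs. Of the epithelial arms, among them the miR-200 family and miR-192, 13 of 13 tested were higher in colon EVs, and of the haematopoietic arms, among them miR-142a and miR-223, 8 of 8 tested were higher in BMDC EVs. The summed epithelial level was 251034 to 386695 TMM-normalised CPM in colon EVs and 3456 to 6758 in BMDC EVs, and the haematopoietic level 5943 to 11991 and 246674 to 282340. The tested arms of smooth muscle and mesenchyme (2 of 2, with 9 arms listed) and of endothelium (2 of 2) were higher in colon EVs. That of the liver list (1 of 1) was higher in BMDC EVs. No red cell arm was tested, the summed level staying between 0.0 and 56.5 CPM. Of all tested miRNAs, 36.4% were called higher in colon EVs and 40.5% higher in BMDC EVs. The part these cell types take in the results below was not tested.

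miR-28a-3p was the leading arm of the family in both sources. Its counts were 461, 195 and 126 in the colon EV libraries, given here and below in the order of replicates 1, 2 and 3, and 177, 114 and 257 in the BMDC EV libraries. After TMM normalisation, a scaling under which the bulk of miRNAs is taken as equal between libraries, these were 916, 969 and 791 CPM in colon EVs and 1146, 1142 and 1294 CPM in BMDC EVs. Every BMDC EV library lay above every colon EV library, as was so for 42.7% of the 220 tested miRNAs, and 81.8% had sources that did not overlap in either direction. The mean level was 892 ± 91.2 CPM (SD, n = 3) in colon EVs, number 73 in abundance among all listed miRNAs, and 1194 ± 86.6 CPM (SD, n = 3) in BMDC EVs, number 58.

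On the log2 scale the fold change was 0.42 with a standard error of 0.238, or 1.34-fold, which was not called (Benjamini-Hochberg adjusted p = 0.113 by the quasi-likelihood test of edgeR). It passed with library totals alone (log2 fold change 0.88, adjusted p = 0.00233) and with the upper quartile (0.65, adjusted p = 0.0221), and turned to −0.092 without a count filter. It also passed without BMDC EV replicate 1 (0.83), 2 (0.91) or 3 (0.78), and in none of the 6 fits that left out a library with a filter on 2 libraries. The 6 fits with the filter on 3 libraries each tested 187 to 195 miRNAs.

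The miR-151 arms stood at about equal levels, below miR-28a-3p. miR-151-5p had 258.33, 70.5 and 64 counts in the colon EV libraries, or 513, 350.3 and 402 CPM after normalisation. It had 30, 37 and 44.83 counts in the BMDC EV libraries, or 194, 371 and 226 CPM. The sources overlapped, since BMDC EV replicate 2 lay above colon EV replicate 2. The mean of the colon EVs was 422 ± 83.2 CPM (SD, n = 3) and that of the BMDC EVs 263 ± 94.0 CPM (SD, n = 3), and the log2 fold change was −0.71 with a standard error of 0.359 (edgeR adjusted p = 0.0788).

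miR-151-3p had 232.5, 110 and 51.33 counts in the colon EV libraries, or 462, 547 and 322 CPM. It had 66, 19.33 and 58.08 counts in the BMDC EV libraries, or 427, 194 and 292 CPM. The sources overlapped here too, with BMDC EV replicate 1 above colon EV replicate 3. The mean of the colon EVs was 444 ± 113 CPM (SD, n = 3) and that of the BMDC EVs 304 ± 117 CPM (SD, n = 3), and the log2 fold change was −0.53 with a standard error of 0.362 (edgeR adjusted p = 0.182). DESeq2 called miR-151-5p higher in colon EVs (log2 fold change −0.82, adjusted p = 0.0419), as did limma voom (−0.80, adjusted p = 0.0478), and edgeR with DESeq2's size factors (−0.82, adjusted p = 0.0487) or with a filter on 2 libraries (−0.82, adjusted p = 0.0459). Without a count filter, edgeR called both miR-151-5p (−1.24, adjusted p = 0.00413) and miR-151-3p (−1.05, adjusted p = 0.0167). With library totals alone neither was called, at −0.24 for miR-151-5p and −0.060 for miR-151-3p. In edgeR, miR-151-5p passed without colon EV replicate 2 (−1.10) or 3 (−1.01) and was −0.13 without BMDC EV replicate 1 and −0.18 without BMDC EV replicate 3. With a filter on 2 libraries it passed without colon EV replicate 2 (−0.96) or BMDC EV replicate 2 (−1.07). miR-151-3p passed without colon EV replicate 3 (−0.96), was −0.055 without BMDC EV replicate 3 and turned to 0.14 without BMDC EV replicate 2.

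**Figure D1:**
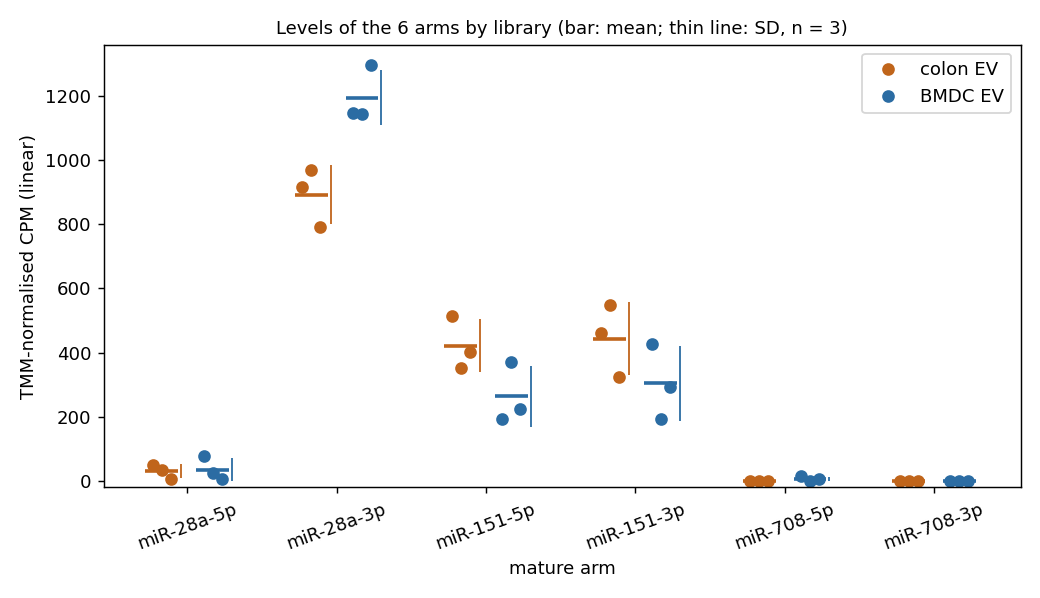
Level of each arm in each library, in TMM-normalised CPM on a linear axis, for colon EVs (orange) and BMDC EVs (blue), with dots for replicates 1 to 3 from left to right, a bar for the mean and a thin line for the SD. miR-28a-3p is the highest arm in all 6 libraries, and it is the one arm tested whose sources do not overlap.

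With this test 0 of the 3 arms were called at an adjusted p under 0.05, where 76.8% of all tested miRNAs were (40.5% with more in BMDC EVs and 36.4% with more in colon EVs). An unadjusted p under 0.05 was reached by 0 of the 3 and by 171 of all 220 tested miRNAs. By DESeq2, 1 of the 3 was called, and 168 of all 220 tested miRNAs were. The median size of the log2 fold change over all tested miRNAs was 2.31, and 25 of the 220 had a smaller change than miR-28a-3p, 31 than miR-151-3p and 40 than miR-151-5p. Of the tested arms, miR-28a-3p had a base level (normalized counts averaged over all libraries) of 199.8, over the study's minimum of 100. The base levels of miR-151-5p, at 65.6, and of miR-151-3p, at 71.6, were under it.

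**Figure D2:**
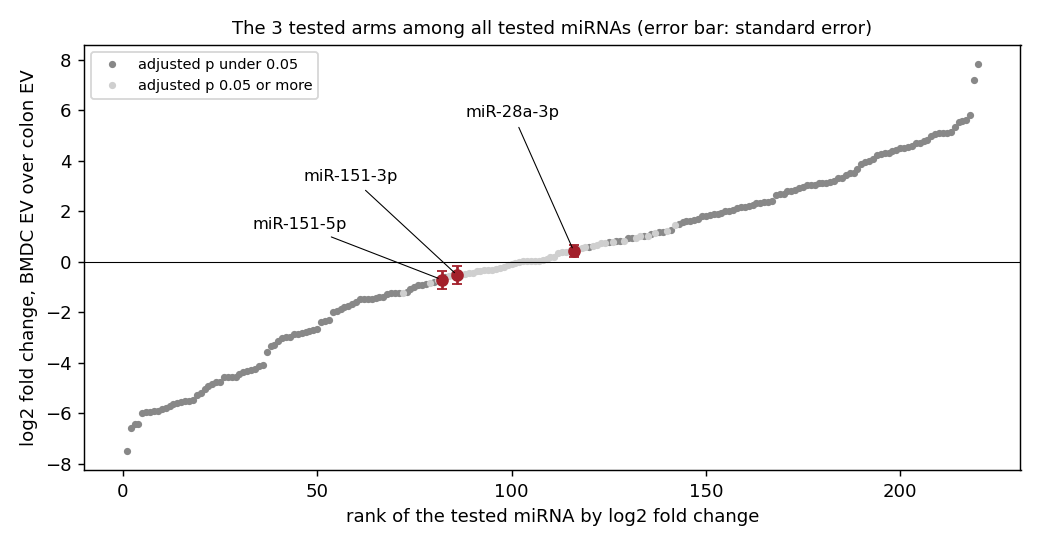
All 220 tested miRNAs in order of their log2 fold change, BMDC EVs over colon EVs, dark grey where the adjusted p was under 0.05 and light grey where it was not. The 3 arms of the family, in red with their standard errors, sit in the flat middle of the order, at −0.71, −0.53 and 0.42.

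The other arm of mir-28a was rare. miR-28a-5p had 25, 7 and 1 counts in the colon EV libraries. In the BMDC EV libraries it had 11.83, 2.5 and 1. Its colon EV level ran from 6.28 to 49.7 CPM and its BMDC EV level from 5.03 to 76.6 CPM, so the ranges overlapped almost in full. It did not reach 10 counts in 3 libraries and was not tested. With a filter on 2 libraries, an alternative added after the data were seen, its log2 fold change was −0.11 with a standard error of 0.795 (edgeR adjusted p = 0.905), an error too wide to tell a change of either direction from none.

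miR-708-5p, the arm that shares the miR-28a-5p seed, was listed at 0 in all colon EV libraries and at 2.25, 0 and 1 in the BMDC EV libraries. miR-708-3p was listed at 0 in all 6 libraries. A count of 0 allows up to 3 counts, which is 4.65 to 17.3 CPM by library total in colon EVs and 16.8 to 35.7 CPM in BMDC EVs, so mir-708 was at or under the floor in both sources and no fold change is given. The floor covers counting error only. Of the near relatives, miR-28b had 1 count in a colon EV library and miR-28c 0.5 in a BMDC EV library.

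The makeup of the family does not depend on how libraries are scaled, because it is a ratio within each library. The 2 arms of mir-28a held 49.8%, 52.8% and 52.4% of the counts of the 6 arms in the colon EV libraries. They held 65.8%, 67.4% and 71.3% in the BMDC EV libraries. Every BMDC EV library was above every colon EV library, and no 95% Wilson interval of a BMDC EV library reached those of the colon EVs, whose highest bound was 58.7% against a lowest of 59.7%. The means were 51.7% ± 1.66 (SD, n = 3) and 68.2% ± 2.83 (SD, n = 3), a difference of 16.5 percentage points. As this is a score over chosen members, no test is given. The intervals cover counting error only, not the spread between libraries. Of single tested miRNAs, 81.8% had sources that did not overlap, and how often other pairs of hairpins part in this way was not tested.

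Put as a ratio, mir-28a counts were 0.990, 1.12 and 1.10 times those of mir-151 in the colon EV libraries and 1.97, 2.07 and 2.51 times in the BMDC EV libraries. With both arms summed, the hairpins were near parity in colon EVs and about 2 to 1 in BMDC EVs. With the more abundant arm of each hairpin alone, mir-28a held 67.2% in colon EVs and 79.7% in BMDC EVs, so the parity rested on counting both arms of mir-151. In normalised levels, the sum of the mir-28a arms was 965, 1004 and 797 CPM in colon EVs and 1223, 1167 and 1299 CPM in BMDC EVs. The sum of the mir-151 arms was 975, 897 and 724 CPM in colon EVs and 622, 564 and 518 CPM in BMDC EVs, so mir-28a was the higher in BMDC EVs and mir-151 the higher in colon EVs, each without overlap between the sources. Of single tested miRNAs, 42.7% had every BMDC EV library above every colon EV library and 39.1% the reverse, so a lack of overlap was common. By library totals alone, mir-28a was 753, 868 and 733 CPM against 1489, 1387 and 1446 CPM, again without overlap. The mir-151 sum was then 761, 776 and 665 CPM against 757, 671 and 577 CPM, and the sources overlapped.

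The fold changes of single arms moved with the processing. Over TMM, DESeq2's size factors, the upper quartile and library totals, the log2 fold change of miR-28a-3p ran from 0.29 to 0.88 and that of miR-151-5p from −0.82 to −0.24. The median of all tested miRNAs moved with the scaling, from 0.06 to 0.64. A scaling shifts all miRNAs of a library alike, so an arm relative to that median, or to another arm, can hardly change with it. Over all 24 settings, miR-28a-3p relative to the median ran from −0.43 without colon EV replicate 3 to 0.79 without BMDC EV replicate 3, with 0.23 as reported, −0.027 with the filter of edgeR's filterByExpr and 0.023 without a filter. miR-151-5p relative to the median ran from −1.53 to −0.17 and miR-151-3p from −1.48 to −0.047, with the lowest value of both again without colon EV replicate 3 and the highest without BMDC EV replicate 3.

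The log2 fold change of miR-28a-3p minus that of miR-151-5p was 1.13. Leaving out single libraries, with the filter on 3 or on 2 libraries, it lay between 0.96 without BMDC EV replicate 3 and 1.46 without BMDC EV replicate 2. Against miR-151-3p the gap was 0.95, and it ran from 0.76 without BMDC EV replicate 2 to 1.304 without BMDC EV replicate 1.

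**Figure D3:**
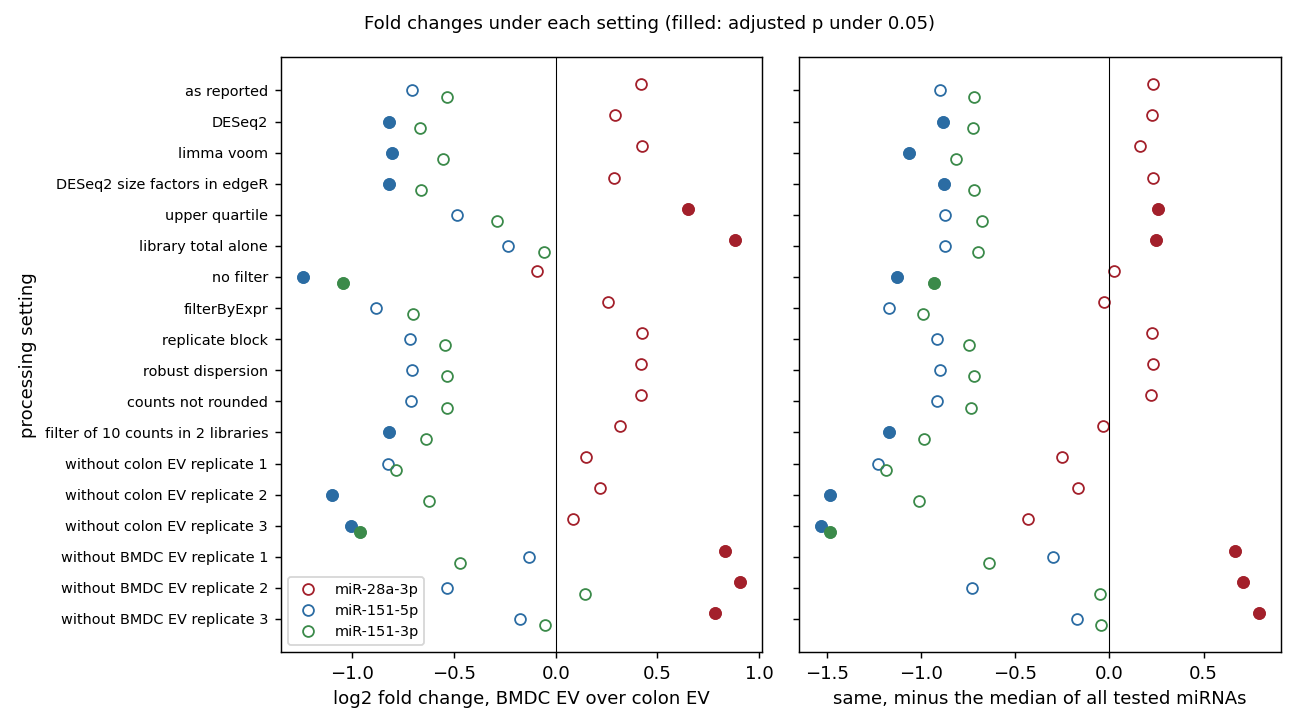
Log2 fold change of the 3 tested arms, BMDC EVs over colon EVs, under each processing setting, as fitted (left) and minus the median of all tested miRNAs in that fit (right), with filled symbols where the adjusted p was under 0.05. The red symbols of miR-28a-3p lie to the right of both miR-151 arms in every setting shown, while the side of 0 and the calls shift.

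Arm usage set the hairpins apart. In mir-28a, the 5p arm held 5.14%, 3.47% and 0.787% of the counts of both arms in the colon EV libraries. It held 6.26%, 2.15% and 0.388% in the BMDC EV libraries. The 3p arm thus dominated in all 6 libraries. The mean 5p share was 3.13% ± 2.20 (SD, n = 3) in colon EVs, against 2.93% ± 3.02 (SD, n = 3) in BMDC EVs, and the shares did not differ beyond their spread (p = 0.90, two-sided exact permutation test, n = 3 against 3, which cannot go below 0.10). The AGGAGCU seed was therefore carried by a minor arm of mir-28a and by a mir-708 arm near 0.

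In mir-151 both arms were counted at similar mean levels, and which arm was kept in Argonaute was not measured. Its 5p arm held 52.6%, 39.1% and 55.5% of the counts in the colon EV libraries and 31.3%, 65.7% and 43.6% in the BMDC EV libraries. The BMDC EV libraries lay on both sides of the colon EV libraries, and they rested on 96, 56.33 and 102.91 counts. The mean was 49.1% ± 8.78 (SD, n = 3) in colon EVs, against 46.8% ± 17.4 (SD, n = 3) in BMDC EVs (p = 1.0, two-sided exact permutation test, n = 3 against 3). Within the hairpins with both arms tested, the log2 ratio of 5p over 3p changed by −0.17 between the sources (adjusted p = 0.845 from edgeR's test of differential usage with Benjamini-Hochberg adjustment), where 18.4% of 38 hairpins were called.

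**Figure D4:**
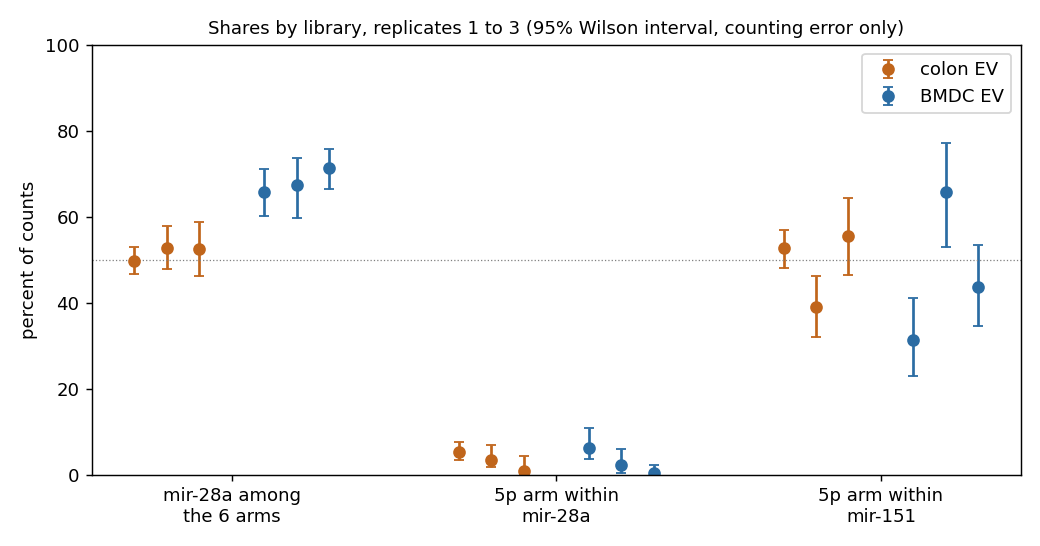
Share of mir-28a among the counts of the 6 arms, and share of the 5p arm within mir-28a and within mir-151, in percent, for each colon EV library (orange) and BMDC EV library (blue), replicates 1 to 3 from left to right, with 95% Wilson intervals that cover counting error only. The first share is higher in all 3 BMDC EV libraries, the second stays under 7% and the third scatters around the dotted line at 50% in both sources.

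Of 82 hairpins with at least 20 counts in every library over both arms, a minimum chosen after the data were seen, mir-151 was the nearest to an even split and the only one whose major arm held under 60% of the counts as a mean over libraries. The major arm held at least 90% in 64 of them, or 78.0%, and its median share was 97.2%. mir-28a, with 97.0% in its 3p arm, was number 41 of 82 in evenness. Next to mir-151 in evenness was mir-674, whose 5p share was 68.6% ± 12.8 (SD, n = 3) in colon EVs, against 66.2% ± 11.4 (SD, n = 3) in BMDC EVs. The 95% Wilson intervals of mir-151 did not overlap between libraries of the same source in places. These intervals take each estimated count as an independent read, and they are too narrow if reads were duplicated or divided, which is not known. Colon EV replicate 2 had a 95% interval of 32.1% to 46.2%, below the 48.1% to 56.9% of replicate 1, and BMDC EV replicate 1 had 22.9% to 41.1%, below the 53.0% to 77.1% of replicate 2. Shares were averaged over libraries before the major arm was taken, so swings to opposite sides cancel in the even split of mir-151.

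Together the 6 arms held 0.151%, 0.164% and 0.140% of the library total in the colon EV libraries and 0.226%, 0.206% and 0.203% in the BMDC EV libraries. The share was higher in each BMDC EV library, with means of 0.152% ± 0.0123 (SD, n = 3) and 0.212% ± 0.0129 (SD, n = 3), and no test is given for it. With library totals alone, the median log2 fold change of all 220 tested miRNAs was 0.64. Most tested miRNAs were thus higher in BMDC EVs on this scale, and the rise is not particular to the family. The values of miR-28a-3p were whole numbers in all 6 libraries. Those of miR-151-5p were not whole in 3 of 6 libraries and those of miR-151-3p in 4 of 6, and the arm shares of mir-151 carry whatever division of reads stands behind those fractions.

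The miRNAs most alike in level and pattern were found by the distance between their log2 CPM over the 6 libraries. For miR-28a-3p they were let-7d-3p at a distance of 0.718, miR-15b-5p at 0.956 and miR-425-5p at 0.985. For miR-151-3p they were miR-185-5p at 0.769, miR-107-3p at 1.21 and miR-101a-3p at 1.56, and for miR-151-5p they were miR-147-3p at 1.02, miR-152-3p at 1.04 and miR-185-5p at 1.08. miR-185-5p, near both miR-151 arms, had 465 ± 80.8 CPM (SD, n = 3) in colon EVs and 317 ± 34.7 CPM (SD, n = 3) in BMDC EVs. The other arm of a miR-151 hairpin was not among its nearest miRNAs in either case.

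Other hairpins attributed to interspersed repeats served as context, a list drawn from general knowledge and not checked against a repeat annotation. It held 15 hairpins with 28 listed arms, of which 18 had a count and 9 were tested. Of these, 2 had more in BMDC EVs, 3 had more in colon EVs and 4 were not called, so 5 of 9 were called where 76.8% of all tested miRNAs were (40.5% with more in BMDC EVs and 36.4% with more in colon EVs). They had a median log2 fold change of 0.72 against 0.19 over all tested miRNAs. The most abundant arm called in each direction was miR-378a-3p, from an intron of the coactivator gene Ppargc1b, and miR-361-5p. miR-378a-3p had 4581 ± 738 CPM (SD, n = 3) in colon EVs and 622 ± 138 CPM (SD, n = 3) in BMDC EVs (log2 fold change −2.87, edgeR adjusted p = 5e-09). miR-361-5p had 536 ± 60.9 and 941 ± 91.7 CPM (SD, n = 3), respectively (log2 fold change 0.82, edgeR adjusted p = 0.00881).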

How the data were processed

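Per the labels and the values, the authors deposited 1 table of estimated counts for mature miRNAs, not normalized and in part not whole, from QIAseq libraries, and 0 of its columns were left without a sample. The submitters' processing notes name STAR 2.7.6a, featureCounts 1.6.3 and DESeq2 1.30.1 and the build GRCm38 (mm10), without their roles. How reads that match several miRNAs were divided and whether molecular identifiers were used is not given in the sources used here. Intervals therefore cover counting error only, and p-values the spread between these libraries.

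Counts were rounded. In R 4.3.3, miRNAs reaching 10 counts in 3 or more libraries were compared with edgeR 4.0.16 (TMM, quasi-likelihood test, Benjamini-Hochberg adjustment over all 220), positive values being higher in BMDC EVs. The standard error is the size of the log2 fold change over the square root of F. CPM use the TMM-scaled total unless library totals are named. Arm usage was compared with edgeR's diffSpliceDGE and by exact permutation of shares. Hosts of the family's hairpins come from GENCODE vM21, and that of miR-378a-3p was not looked up there. Named were the arms, for each main arm the 3 miRNAs at the smallest Euclidean distance in log2 CPM (prior count 2), the top called arm of the repeat list in each direction and sequence relatives. mir-674, and the neighbours of the second arm of mir-151, were added after values were seen. Members and lists were chosen with earlier results of these data known.

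Libraries sharing a replicate number did not deviate together (correlations −0.14, −0.06 and −0.13), and no library was a duplicate (chi-square per degree of freedom 6.28 or more within sources). DESeq2 1.42.0 and limma 3.58.1 were alternatives. Data for the sources were simulated with log2 changes of 2 in size. Of 68 changed miRNAs among 236, 66 were recovered, with 2 calls among 168 unchanged. For arm usage, also with a change of 2, it was 8 of 8 changed hairpins among 43, with 1 call among 35 unchanged. Changes as small as those of the tested arms of the family were not simulated, so the recovery of such changes is not known. In the data 76.8% of tested miRNAs were called, a larger part than was changed in the simulation. The simulated rates of recovery and of false calls may therefore not hold for the data.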

Additional observations from a re-analysis of the deposited data

How the results depend on the processing

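miR-28a-3p kept a higher log2 fold change than both miR-151 arms in all 24 settings fitted, an order that a change of scaling alone can hardly alter, whereas calls on single arms shifted. The count of arms higher in BMDC EVs was 0 as reported, against 89 of all 220 tested miRNAs. It was 1 with the upper quartile (against 97) and with library totals (against 105). The count higher in colon EVs was 0 as reported (against 80) and 2 without a filter (against 114 of 771). It was 1 with DESeq2 (against 84), limma voom (81), DESeq2's size factors (86) and a filter on 2 libraries (88 of 258). For miR-28a-3p, the log2 fold change was 0.65 with the upper quartile, 0.88 with library totals and −0.092 without a filter. For miR-151-5p, it was −0.82 with DESeq2, with its size factors and with a filter on 2 libraries, −0.80 with limma voom and −1.24 without a filter, where miR-151-3p was −1.05. The cause was not tested beyond the shift of the median of all miRNAs.

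With the replicate number as a block, the log2 fold change was 0.42 (adjusted p = 0.183) for miR-28a-3p, −0.72 (adjusted p = 0.125) for miR-151-5p and −0.54 (adjusted p = 0.226) for miR-151-3p, from edgeR's quasi-likelihood test, and −0.18 for the arm usage of mir-151. The block changed no call on an arm, and 164 in place of 169 of all tested miRNAs were called. The numbers do not mark a shared animal or batch in the labels, so the samples share only a number.

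Leaving out single libraries, the count of arms called was 0 to 1 higher in BMDC EVs and 0 to 2 higher in colon EVs. Of the 187 to 195 miRNAs tested in these fits, 133 to 150 were called. The log2 fold change ran from 0.086 to 0.91 for miR-28a-3p, from −1.10 to −0.13 for miR-151-5p and from −0.96 to 0.14 for miR-151-3p. miR-28a-3p passed without BMDC EV replicate 1 (0.83), 2 (0.91) or 3 (0.78), miR-151-5p without colon EV replicate 2 (−1.10) or 3 (−1.01), and miR-151-3p without colon EV replicate 3 (−0.96). The filter on 3 of 5 libraries then removes miRNAs of the source left with 2. With a filter on 2 libraries, added after the data were seen, the ranges were 0.22 to 0.45, −1.07 to −0.55 and −0.85 to −0.37, and only miR-151-5p passed, without colon EV replicate 2 (−0.96) or BMDC EV replicate 2 (−1.07). The arm usage of mir-151 ran from −0.70 to 0.38, the reversed value coming without BMDC EV replicate 1.

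The share of mir-28a ran from 51.1% to 52.6% in colon EVs and from 66.6% to 69.3% in BMDC EVs, and with the more abundant arm of each hairpin alone it was 67.2% and 79.7%. The share of the library held by the 6 arms ran from 0.146% to 0.158% and from 0.204% to 0.216%, and without the 10 most abundant miRNAs in the total it was 0.399% and 0.631%. The 5p share ran from 2.13% to 4.30% and from 1.27% to 4.21% in mir-28a, and from 45.8% to 54.1% and from 37.4% to 54.6% in mir-151. Depth limits miR-28a-5p and mir-708, which had at most 25 and 2.25 counts in any library.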
